A study of Homo sapiens with 3 samples.

Results

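The 10 genes described here encode proteins that bind HSP70 chaperones and, for most of them, speed the release of ADP from the chaperone. They are 6 BAG genes (BAG1 to BAG6), HSPBP1, and the 3 HSP110 genes HSPH1, HSPA4 and HSPA4L. They were chosen by symbol from a table of 58735 Ensembl genes, and all 10 were found in it. Expression was measured by RNA-seq in H660, a neuroendocrine prostate cancer cell line of human origin with the parental phenotype. Cells received DMSO as the vehicle, 2.5 μM JG231 or 5 μM JG231 for 24 h, and 1 library was made per condition. JG231 is an allosteric inhibitor of HSP70, and the study asked how it changed gene expression in neuroendocrine prostate cancer cells. Values are FPKM, fragment numbers corrected for transcript length and for library size, so levels of different genes are compared per length. Inferred from the steps between FPKM values, the libraries held about 16.1 M fragments (DMSO), 20.4 M (2.5 μM) and 24.1 M (5 μM). No recorded depths were used. With 1 library per condition no difference below has a replicate check, and no p-value is given. Both JG231 libraries were compared with the same DMSO library.

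The identity of the cells was checked against markers. The sample records name the cell type as prostatic adenocarcinoma, and the series design names a neuroendocrine line. CHGA, which encodes a secretory granule protein, had 46.0 FPKM in DMSO, 15.0 with 2.5 μM and 12.7 with 5 μM. In the same order, SYP had 17.7, 13.0 and 14.8 FPKM, ENO2 had 37.0, 30.8 and 27.8, NCAM1 had 6.16, 4.82 and 3.40, and INSM1 had 13.4, 16.3 and 10.5. Other neuroendocrine markers were low. FOXA2 had 0.979, 2.13 and 1.12 FPKM, and MYCN had 0.693, 0.226 and 0.559. Of the luminal prostate markers, KLK2 was listed at 0 in all 3 libraries, and KLK3 did not exceed 0.134 FPKM. PTPRC of blood cells and PECAM1 of endothelium were listed at 0 throughout. COL3A1 did not exceed 0.0288 FPKM, and COL1A1, a fibroblast gene, had 0.823, 0.745 and 1.27 FPKM. In a bulk culture, fewer cells that express a gene and less of its RNA per cell cannot be told apart.

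HSP70 works in a cycle. With ATP bound it takes up and releases unfolded proteins quickly, J-domain proteins then stimulate ATP hydrolysis and lock the protein in place, and an exchange factor opens the nucleotide-binding domain so that ADP leaves and the protein is freed. Most BAG proteins share a short helical domain for this contact. The family members carry different further domains that link HSP70 to the proteasome, to autophagy or to signalling proteins. HSPBP1 grips the same domain of HSP70 through armadillo-like repeats, and HSP110 proteins are relatives of HSP70 that act as its exchange factors in the cytosol.

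In the deposited values, BAG1 rose most among the 10 at both doses, BAG6 and HSPBP1 also rose at both, and HSPH1 fell at both. The calls of BAG6 at both doses and of HSPBP1 at 2.5 μM were lost in a scaling without mitochondrial and small RNA genes. That of HSPH1 at 5 μM was lost with the length trend removed. Changes are log2 of FPKM plus 0.1 in JG231 over the same in DMSO, a scale that understates the changes of low genes. "Rose" and "fell" mean a change beyond 0.25 in a gene with more than 1 FPKM in either library, the fold and minimum of the study's methods, applied here to either library of a pair. The methods also kept genes going to or from 0, which are kept here if the other library is above 1 FPKM. All 10 genes passed the expression part of this filter. At 2.5 μM, 4 of the 10 rose (BAG1, BAG4, BAG6 and HSPBP1), beside 36.4% of all 15746 genes that passed, and 2 fell (BAG2 and HSPH1), beside 43.4%. At 5 μM, 4 rose (the same genes), beside 36.5% of 15765 genes, and 1 fell (HSPH1), beside 45.1%. Beyond a change of 1, only BAG1 rose at 2.5 μM, 1 of 10 beside 12.9% of all genes, and 0 fell beside 21.7%. At 5 μM it was again BAG1 alone, 1 of 10 beside 14.7%, and 0 fell beside 24.3%. The share of exchange factors that rose was thus near that of all genes at either dose. The median change of the 10 was 0.21 at 2.5 μM and 0.14 at 5 μM, and the medians of all genes were -0.08 and -0.11. Coding genes alone had medians of 0.01 and -0.01. Among genes with a mean of at least 5 FPKM the medians were 0.21 and 0.23, near the 0.24 at either dose of the 7 exchange factors there.

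**Figure D1:**
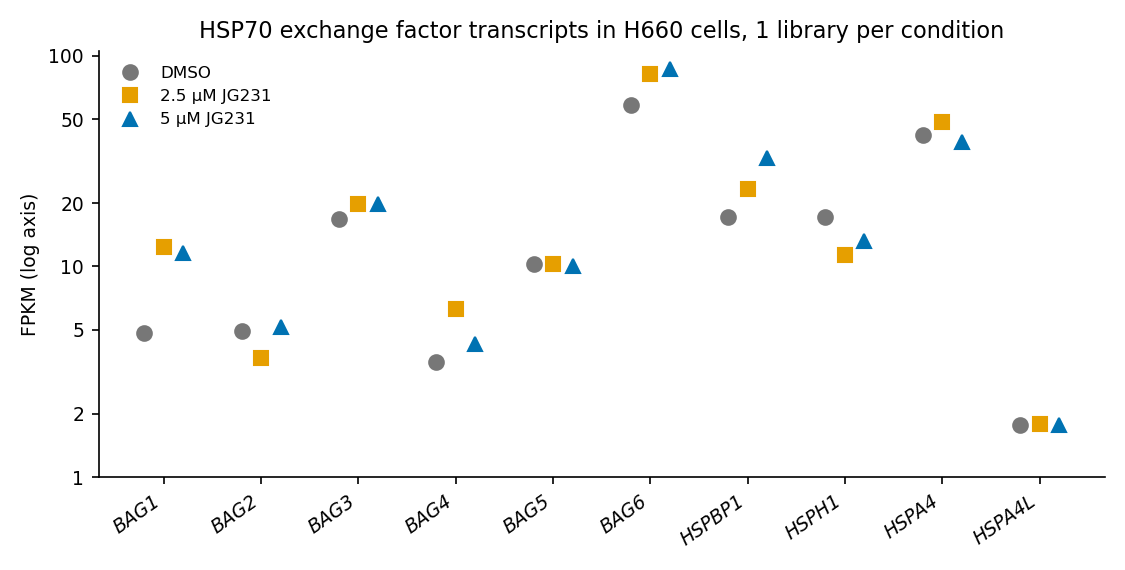
FPKM of the 10 exchange factor genes on a log axis, 1 point per library, in DMSO (circles), 2.5 μM JG231 (squares) and 5 μM JG231 (triangles). BAG6 was the most abundant in all 3 libraries, between 58.1 and 86.9 FPKM, and HSPA4L the least, between 1.77 and 1.80.

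The direct comparison of the doses does not use the DMSO library. From 2.5 to 5 μM, 2 of the 10 genes were higher (BAG2 and HSPBP1), beside 26.8% of 14197 genes, and 2 were lower (BAG4 and HSPA4), beside 30.1%. In the deposited values HSPBP1 was higher at each step, BAG1, BAG3 and BAG6 differed by at most 0.09 between the doses, BAG4 and HSPA4 were highest at 2.5 μM, and BAG2 and HSPH1 were lowest there. With the same sum of FPKM in every library BAG1 was lower by 0.27 at the higher dose, past the threshold, and BAG3 by 0.18. In place of a replicate error, each gene was set beside the spread of single genes, the robust SD of the log2 difference between the JG231 libraries over the 500 genes closest in mean level, which includes any effect of dose. By this measure 5 of the 10 changes at 2.5 μM (BAG1, BAG4, BAG6, HSPBP1 and HSPH1) and 4 of the 10 at 5 μM (those but BAG4) were larger than the spread. Of all genes past the filter, 63.9% at 2.5 μM and 67.6% at 5 μM were too, so these counts do not set the 10 apart.

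BAG1 (ENSG00000107262, chr9:33247820-33264720, minus strand) on GRCh38, as are all coordinates here, encodes the founding BAG protein, which binds BCL2 and, through a ubiquitin-like domain, brings HSP70 to the proteasome. Its level was 4.81 FPKM in DMSO, 12.4 with 2.5 μM and 11.6 with 5 μM. Both treated libraries lay well above DMSO and close to each other. The FPKM steps gave 547, 1785 and 1976 fragments. The change was 1.35 at 2.5 μM (95% counting interval 1.23 to 1.51) and 1.25 at 5 μM (1.13 to 1.41), and the spread of genes of similar level was 0.32. Such intervals cover counting error only, since amplified reads are not independent molecules. BAG1 moved from rank 8 of the 10 in DMSO to rank 5 at 2.5 μM and rank 6 at 5 μM. Among all genes past the filter, 1268 of 15746 changed as much or more in this direction at 2.5 μM, and 1612 of 15765 at 5 μM. Without mitochondrial and small RNA genes in the scaling the changes were 1.06 and 0.88. A pseudogene of BAG1, listed as AF241726.1, had a mean of 0.741 FPKM, and how reads were divided between the copies is not stated. The upstream bases of BAG1 are shown because it rose most. They are from the RefSeq promoter table (GRCh38.p14), chr9:33264709-33264958, minus strand, and end 1 base before the start site. Capitals mark matches to GGGCGG, the core of the GC box bound by SP1, read on both strands.
BAG1 upstream: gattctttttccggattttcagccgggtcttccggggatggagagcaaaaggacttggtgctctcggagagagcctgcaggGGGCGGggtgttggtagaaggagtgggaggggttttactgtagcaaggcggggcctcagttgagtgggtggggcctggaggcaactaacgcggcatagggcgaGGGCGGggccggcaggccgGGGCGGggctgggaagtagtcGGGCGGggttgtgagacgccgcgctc
The 4 capital stretches begin at -169, -66, -47 and -26 from the start. GGGCGG occurs in 45.0% of 35116 promoter windows, each of 250 bases before to 50 bases after a start, and in 12 of the 15 windows of the 9 matched members. The GC box was searched after the sequences had been seen. No 2-unit heat shock element (GAANNTTC or TTCNNGAA) was in this window, and these letters occur in 6.77% and 7.74% of all windows.

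The genes nearest to BAG1 in their changes over the 3 libraries, among 7045 coding genes with a mean of at least 5 FPKM, were WASL, YARS2 and MRPL27. WASL, which encodes an activator of actin branching, had 8.16, 20.9 and 19.9 FPKM and lay at a distance of 0.02 in the pair of log2 changes. YARS2, a mitochondrial tyrosyl-tRNA synthetase gene, had 4.82, 12.3 and 11.9 FPKM. MRPL27, a mitochondrial ribosome gene, had 7.58, 19.0 and 18.6 FPKM. A total of 36 of the 7045 genes lay within a distance of 0.1, so this course was not particular to BAG1.

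**Figure D2:**
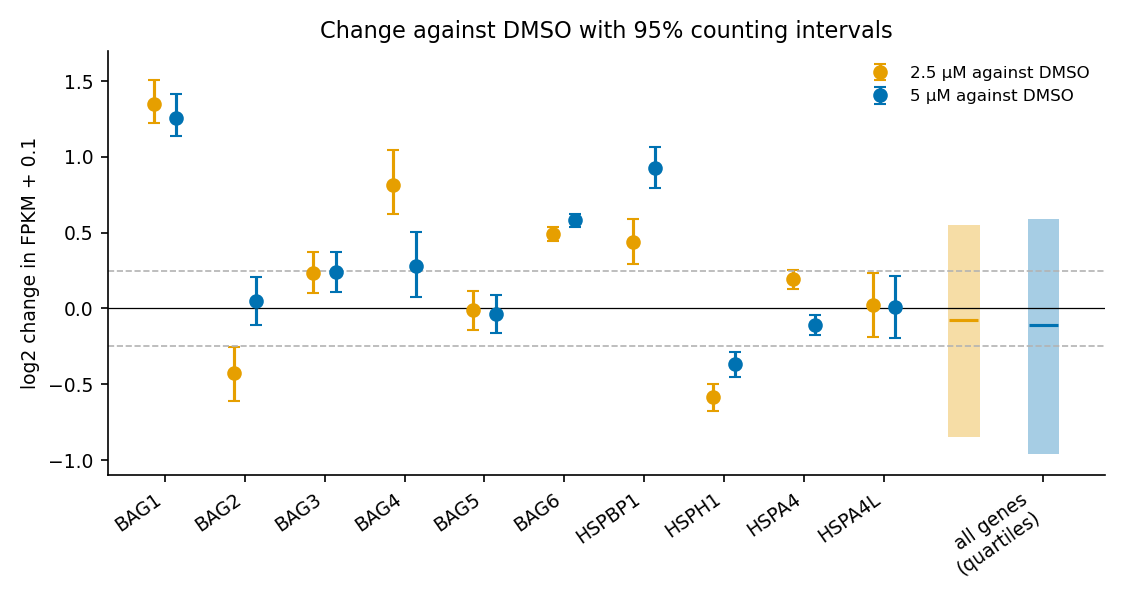
Log2 change of FPKM + 0.1 against DMSO for the 10 genes at 2.5 μM (orange) and 5 μM JG231 (blue), with 95% counting intervals that cover counting error only, and dashed lines at 0.25 either side of 0. The bars at the right span the quartiles of all genes past the filter with a line at their median, and BAG1 lies above both bars.

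BAG3 (ENSG00000151929, chr10:119651380-119677819, plus strand) encodes the scaffold that links HSP70 to small heat shock proteins and to autophagy, and its gene is a classical target of HSF1. It had 16.8 FPKM in DMSO, 19.8 with 2.5 μM and 19.8 with 5 μM, from 742, 1108 and 1311 fragments. The change of 0.24 at either dose stayed inside the threshold and was smaller than the spread of 0.28, although the counting interval at 2.5 μM ran from 0.10 to 0.37. Centring on the median gene gave 0.32 and 0.35, and scaling to the same sum of FPKM gave 0.29 at 2.5 μM, all past the threshold, but 0.11 at 5 μM. With the length trend removed the changes were 0.10 and 0.06. Scaling without mitochondrial and small RNA genes turned it to -0.05 at 2.5 μM and -0.14 at 5 μM. The ratio of BAG1 to BAG3 within a library does not depend on the scaling, and it was 0.286 in DMSO, 0.626 with 2.5 μM and 0.585 with 5 μM. The bases upstream of BAG3 are shown as those of the best-known heat shock gene of the family (chr10:119651130-119651379, plus strand). Capitals mark GGGCGG on either strand and, abutting the last of them, TGACTCA, the element bound by AP-1, which was also searched after the sequences had been seen.
BAG3 upstream: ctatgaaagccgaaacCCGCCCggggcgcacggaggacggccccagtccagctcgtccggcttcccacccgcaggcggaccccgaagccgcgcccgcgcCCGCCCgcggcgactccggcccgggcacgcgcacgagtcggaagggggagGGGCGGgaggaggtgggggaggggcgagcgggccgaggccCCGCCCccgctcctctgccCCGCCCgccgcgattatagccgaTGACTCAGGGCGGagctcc
TGACTCA begins at -19 and occurs in 4.95% of all windows. The 300-base window of BAG3 has a GC content of 75.3%, beside a median of 58.7% over all windows, and neither 2-unit heat shock element was in it. Only exact letters in this window were searched, so elements with other letters or further from the start were not covered.

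BAG2 (ENSG00000112208, chr6:57172326-57189833, plus strand) encodes a cochaperone that inhibits the ubiquitin ligase CHIP. It had 4.96 FPKM in DMSO, 3.68 with 2.5 μM and 5.14 with 5 μM, so the lowest value was at the lower dose. The fall of 0.42 at 2.5 μM (-0.61 to -0.25) was smaller than the spread of 0.45, and the change at 5 μM was 0.05. With the length trend removed the value at 2.5 μM was -0.23, inside the threshold. At 5 μM its sign depended on the scaling, from -0.32 without mitochondrial and small RNA genes to 0.41 with the length trend removed. Of its exons, 2842 bp lie opposite RAB23, which had 2.89, 4.59 and 5.35 FPKM. Whether counting used the strand was not stated, so reads of the pair cannot be told apart. BAG2 was 1 of 2 genes with a heat shock element match among the 9 with a RefSeq window (all but BAG4), and its upstream bases are shown for it (chr6:57172076-57172325, plus strand). Capitals mark GAACCTTC, a match to GAANNTTC that begins at -124, and GGGCGG.
BAG2 upstream: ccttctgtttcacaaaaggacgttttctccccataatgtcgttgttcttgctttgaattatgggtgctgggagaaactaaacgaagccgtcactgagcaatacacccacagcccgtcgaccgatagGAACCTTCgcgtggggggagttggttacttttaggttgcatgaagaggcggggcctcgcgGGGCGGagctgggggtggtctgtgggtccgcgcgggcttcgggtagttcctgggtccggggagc
The other match, TTCTCGAA, begins at -170 of the second RefSeq start site of HSPA4L. The 3-unit element, which adds a further unit in alternating orientation, occurs in 0.490% of all windows, and the C/EBP-ATF element TGATGNAAT in 0.991%, and neither was in a window of the 9 genes.

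BAG4 and BAG5 differed in their course. BAG4 (ENSG00000156735, chr8:38176533-38213301, plus strand), also known as the silencer of death domains, binds TNF receptor 1 and death receptor 3. It had 3.52 FPKM in DMSO, 6.27 with 2.5 μM and 4.30 with 5 μM, from 272, 614 and 497 fragments. The rise was 0.82 at 2.5 μM (0.63 to 1.05) and 0.28 at 5 μM (0.07 to 0.51), with a spread of 0.43, and BAG4 was lower by 0.53 at the higher than at the lower dose (-0.72 to -0.37). Without mitochondrial and small RNA genes in the scaling, the 5 μM value was -0.09. BAG4 shares 198 bp of exon with LSM1 on the opposite strand, which also peaked at the lower dose, with 4.34, 8.97 and 6.17 FPKM, and the part of shared reads was not tested. BAG5 (ENSG00000166170, chr14:103556545-103562657, minus strand), which has several BAG domains in tandem and binds Parkin, had 10.3, 10.2 and 10.1 FPKM. Its changes were -0.01 and -0.04, and its counting intervals crossed 0 at both doses. In the scaling without mitochondrial and small RNA genes they were -0.30 and -0.41.

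BAG6 (ENSG00000204463, chr6:31639028-31652705, minus strand) encodes a divergent family member that holds hydrophobic proteins for membrane insertion or degradation. It was the most abundant of the 10, with 58.1 FPKM in DMSO, 81.5 with 2.5 μM and 86.9 with 5 μM. The rise was 0.49 at 2.5 μM (0.44 to 0.53) and 0.58 at 5 μM (0.54 to 0.63), larger than the spread of 0.22, and the difference between doses of 0.09 was inside it. Its share of the summed FPKM of the 10 genes, which does not depend on the scaling, was 32.9% in DMSO, 37.3% with 2.5 μM and 38.7% with 5 μM. Scaling without mitochondrial and small RNA genes left 0.20 at either dose, inside the threshold. BAG6 fragments are approximate, since no exon length gave whole numbers.

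HSPBP1 (ENSG00000133265, chr19:55262223-55280381, minus strand) encodes an exchange factor that also inhibits CHIP. It was the only gene of the 10 that rose with each step of dose by more than the threshold. Its level was 17.2 FPKM in DMSO, 23.4 with 2.5 μM and 32.8 with 5 μM, from 599, 1029 and 1706 fragments. The rise was 0.44 at 2.5 μM (0.29 to 0.59) and 0.93 at 5 μM (0.79 to 1.07), with a spread of 0.25, and 0.49 from the lower to the higher dose (0.38 to 0.60). Its share of the summed FPKM of the 10 genes was 9.76% in DMSO, 10.7% with 2.5 μM and 14.6% with 5 μM. HSPBP1 has the shortest main transcript of the 10, at 1635 bp. With the length trend of all coding genes removed, its changes were 0.16 and 0.54, and in the scaling without mitochondrial and small RNA genes they were 0.15 and 0.55. At the lower dose both are inside the threshold.

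In the deposited values the HSP110 genes did not share the rises. HSPH1 (ENSG00000120694, chr13:31134973-31162388, minus strand), also called HSP105, is a heat shock gene. It had 17.1 FPKM in DMSO, 11.3 with 2.5 μM and 13.2 with 5 μM, from 2305, 1940 and 2668 fragments. Both treated libraries were below DMSO, and the lowest was at the lower dose. The fall was -0.59 at 2.5 μM (-0.68 to -0.50) and -0.37 at 5 μM (-0.45 to -0.29), with a spread of 0.29. Among all genes past the filter, 31.9% fell further at 2.5 μM and 41.3% at 5 μM. With the length trend removed the values were -0.47 and -0.14, and the latter was inside the threshold. The bases upstream of HSPH1 are shown as those of the gene that fell (chr13:31162389-31162638, minus strand), and they hold none of the motifs searched, so they have no capitals.
HSPH1 upstream: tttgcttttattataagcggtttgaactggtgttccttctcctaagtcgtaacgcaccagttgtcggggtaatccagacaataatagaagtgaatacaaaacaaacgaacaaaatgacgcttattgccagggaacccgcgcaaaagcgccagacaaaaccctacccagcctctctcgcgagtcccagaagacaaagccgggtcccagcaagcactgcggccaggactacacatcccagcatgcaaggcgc
The absence says only that these letters are not in this window. The nearest genes to HSPH1 in their changes were TUBB, a tubulin gene with 319, 214 and 247 FPKM, CALCOCO1 with 10.3, 6.87 and 7.94, and GNPNAT1 with 12.8, 8.52 and 9.84. A total of 63 of 7045 genes lay within a distance of 0.1.

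HSPA4 (ENSG00000170606, chr5:133052013-133106449, plus strand), also called APG-2, had 42.2 FPKM in DMSO, 48.2 with 2.5 μM and 39.1 with 5 μM. Its changes of 0.19 and -0.11 were inside the threshold, and the drop of -0.30 between the doses (-0.36 to -0.25) was larger than the spread of 0.23. Without mitochondrial and small RNA genes in the scaling the changes were -0.10 at 2.5 μM and -0.49 at 5 μM, the latter past the threshold. With the length trend removed they were 0.28 and 0.07, and the drop between the doses was -0.21, inside the threshold and the spread. HSPA4L (ENSG00000164070, chr4:127781821-127840733, plus strand), a relative best known from testis, had 1.77, 1.80 and 1.78 FPKM, from 330, 425 and 497 fragments. Its changes of 0.02 and 0.01 had counting intervals that crossed 0. HSPA4L has the longest main transcript of the 10, at 10608 bp, and removal of the length trend gave 0.34 and 0.57. Scaling without mitochondrial and small RNA genes gave -0.25 and -0.35, past the threshold as falls. The ratio of HSPH1 to HSPA4 within a library was 0.405 in DMSO, 0.235 with 2.5 μM and 0.338 with 5 μM.

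The balance of the family and its chaperones was summed within each library. The 6 BAG genes together had 98.5 FPKM in DMSO, 134 with 2.5 μM and 138 with 5 μM, whereas the 3 HSP110 genes had 61.0, 61.4 and 54.1. The cytosolic HSP70 genes HSPA1A, HSPA1B and HSPA8 together had 222, 181 and 247 FPKM. For each 100 FPKM of these HSP70 transcripts there were 79.7 FPKM of the 10 exchange factors in DMSO, 120.5 with 2.5 μM and 91.0 with 5 μM. The value was highest at the lower dose, where HSPA8, the constitutive HSP70 gene, was lowest, with 189 FPKM in DMSO, 136 with 2.5 μM and 180.5 with 5 μM. HSPA1A and HSPA1B are near-identical copies, and their separate values are uncertain.

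The scaling of the libraries bears on every change above. Mitochondrial genes held 39.8% of all FPKM in DMSO, 24.1% with 2.5 μM and 28.8% with 5 μM. When each library was scaled to the same sum without mitochondrial and small RNA genes, the median of all genes at 2.5 μM moved from -0.08 to -0.40, and that at 5 μM from -0.11 to -0.53. The share of higher genes among all that rose or fell moved from 45.6% to 30.4% and from 44.7% to 27.6%. The median of the 10 became -0.08 at 2.5 μM and -0.23 at 5 μM. BAG1, BAG6 and HSPBP1 stayed above 0 and HSPH1 below 0 at both doses under all settings run.

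**Figure D3:**
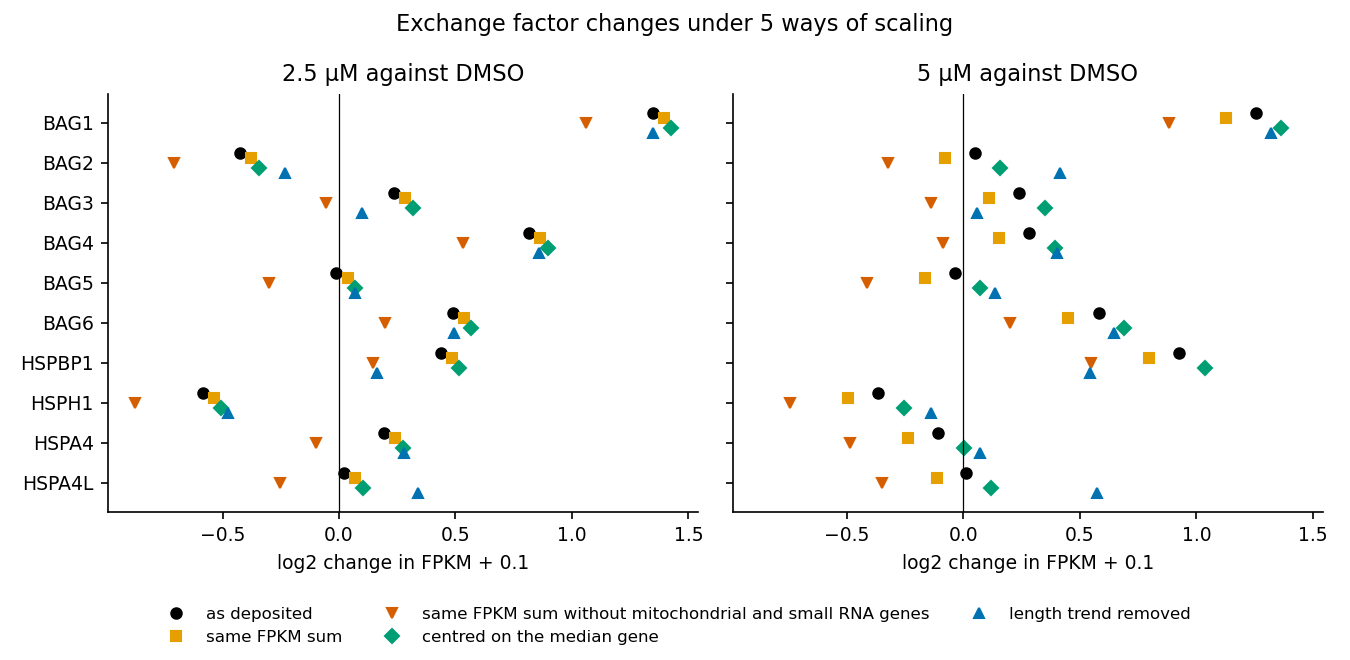
Log2 change of each gene against DMSO at 2.5 μM (left) and 5 μM (right) under 5 ways of scaling, 1 symbol per setting. BAG1, BAG6 and HSPBP1 lie right of 0 and HSPH1 left of 0 with every symbol, whereas the symbols of BAG3, BAG5, HSPA4 and HSPA4L fall on both sides in both panels.

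Changes also followed transcript length. Over 11200 coding genes the trend at 1000 bp was 0.40 at 2.5 μM and 0.56 at 5 μM, and at 5000 bp it was -0.10 and -0.20. Most exchange factor genes have main transcripts between 2561 and 6651 bp, with HSPBP1 and HSPA4L on either side. BAG1, with 3820 bp, changed by 1.35 and 1.32 after the trend was removed, and BAG6, with 3843 bp, by 0.49 and 0.65. HSPBP1 became smaller at both doses (0.16 and 0.54), as did HSPH1 (-0.47 and -0.14), while HSPA4L (0.34 and 0.57) and BAG2 at 5 μM (0.41) became larger.

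**Figure D4:**
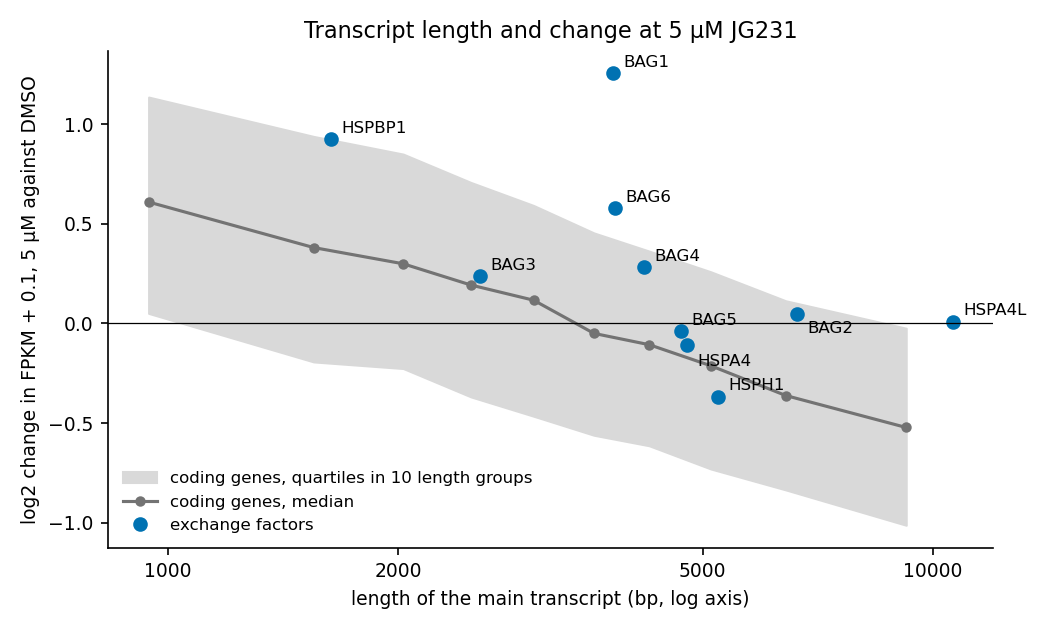
Log2 change at 5 μM JG231 against DMSO by length of the main transcript (log axis), with the 10 exchange factor genes in blue and the median (line) and quartiles (band) of coding genes in 10 length groups in grey. The median goes from 0.61 in the shortest group to -0.52 in the longest, and BAG1 lies far above the band.

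Partners of the BAG proteins, and the other chaperone genes below, were described from lists. The counts of every list stand beside the shares of all genes that rose (36.4% at 2.5 μM and 36.5% at 5 μM) and fell (43.4% and 45.1%). In the scaling without mitochondrial and small RNA genes these shares were 24.6% and 22.9% for rises and 56.2% and 60.1% for falls. The BAG6 list (GET4, UBL4A, SGTA, RNF126, ASNA1 and UBQLN4) holds its complex partners, a ubiquitin ligase and targeting factors that work with it. Of 6 genes, 4 rose and 0 fell at 2.5 μM, and 6 rose and 0 fell at 5 μM, with medians of 0.54 and 0.95. Without mitochondrial and small RNA genes in the scaling, 3 rose and 1 fell (UBQLN4, -0.37) at 2.5 μM, and 5 rose and 0 fell at 5 μM, with medians of 0.26 and 0.57. RNF126, the ubiquitin ligase recruited by BAG6, had 17.7 FPKM in DMSO, 55.4 with 2.5 μM and 52.7 with 5 μM, changes of 1.64 and 1.57. ASNA1, the ATPase that carries tail-anchored proteins to the membrane, had 51.1, 90.3 and 109 FPKM. GET4, a subunit of the BAG6 complex, was low, with 0.830, 1.20 and 2.30 FPKM. These 3 stood above DMSO in both treated libraries under all scalings run.

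The BAG3 list was mixed. Of 7 genes past the filter, 4 rose and 2 fell (HSPB6 and AMOTL1) at 2.5 μM, and 2 rose and 3 fell (HSPB6, AMOTL1 and TSC1) at 5 μM. With the scaling without mitochondrial and small RNA genes, 2 rose and 3 fell at 2.5 μM, and 2 rose and 4 fell at 5 μM. SQSTM1, the autophagy receptor p62, had 30.5 FPKM in DMSO, 85.9 with 2.5 μM and 117 with 5 μM, changes of 1.49 and 1.94. AMOTL2, an angiomotin of the kind bound by the WW domain of BAG3, had 2.18, 8.79 and 9.38 FPKM. HSPB6, a small heat shock protein gene, had 1.23 and 0.627 FPKM and was listed at 0 at 5 μM, so no fold is given. AMOTL1 went the other way from its relative, with 6.83, 4.33 and 2.95 FPKM.

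Of the partners of other BAG proteins, 3 of 5 rose and 2 fell at 2.5 μM, and 2 rose and 2 fell at 5 μM. TNFRSF25, which encodes the death receptor 3 bound by BAG4, had 18.9 FPKM in DMSO, 5.76 with 2.5 μM and 2.32 with 5 μM, changes of -1.70 and -2.98. BCL2 had 14.8, 12.3 and 9.42 FPKM, and its changes were -0.26 and -0.64. In the scaling without mitochondrial and small RNA genes 2 rose and 2 fell at 2.5 μM, and 0 rose and 3 fell at 5 μM.

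Exchange factors of other compartments were 4 genes, of which 2 rose and 0 fell at 2.5 μM and 3 rose and 1 fell (SIL1) at 5 μM. GRPEL2, a mitochondrial exchange factor gene, had 11.1 FPKM in DMSO, 29.8 with 2.5 μM and 25.4 with 5 μM, changes of 1.41 and 1.18. GRPEL1, its paralogue, had 6.13, 8.45 and 8.10 FPKM. HYOU1, the HSP110 relative of the endoplasmic reticulum, had 28.7, 33.3 and 36.8 FPKM, and its sign turned at both doses in the scaling without mitochondrial and small RNA genes, where 1 of the 4 rose and 1 fell at either dose. SIL1, the other exchange factor of that compartment, had 15.6, 15.6 and 11.7 FPKM.

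**Figure D5:**
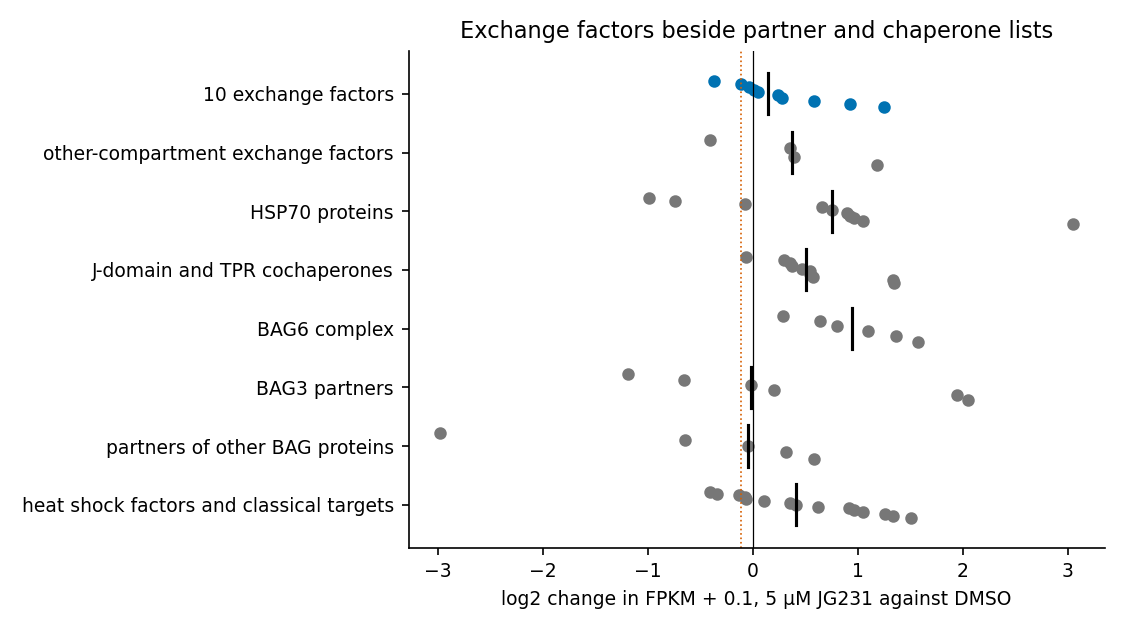
Log2 change at 5 μM JG231 against DMSO for the 10 exchange factor genes (blue) and for the genes of 7 lists (grey), 1 point per gene past the filter, with a black bar at each median and a dotted line at the median of all genes, -0.11. Genes listed at 0 in either library are counted in the medians but have no point, and the BAG6 complex genes all lie right of 0 in the deposited scale.

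Among HSP70 genes, 11 entries of 10 symbols passed the filter, since HSPA14 has 2 entries, and 7 entries rose and 3 fell at either dose. Without mitochondrial and small RNA genes in the scaling, 5 rose and 4 fell at 2.5 μM, and 7 rose and 4 fell at 5 μM. The genes that fell were HSPA1L, HSPA8 and HSPA12B at 2.5 μM and HSPA1L, HSPA12B and 1 of the 2 entries of HSPA14 at 5 μM. HSPA6, a strictly inducible HSP70 gene, had 0.603 FPKM in DMSO, 5.63 with 2.5 μM and 5.73 with 5 μM. HSPA1B had 25.2, 36.4 and 52.5 FPKM, and HSPA12B had 1.20 and 0.0935 FPKM and was listed at 0 at 5 μM. Of the J-domain and TPR cochaperones, 4 of 10 rose and 2 fell (DNAJB4 and STIP1) at 2.5 μM, and 9 rose and 0 fell at 5 μM. In the scaling without mitochondrial and small RNA genes 2 rose and 4 fell at 2.5 μM, where the median turned from 0.12 to -0.17, and 2 rose and 1 fell at 5 μM. DNAJB2 had 9.10, 16.8 and 23.3 FPKM, and DNAJB1, the main heat-inducible partner of HSP70, had 36.9, 70.4 and 93.3. DNAJA1 had 94.2, 103 and 141 FPKM, and its change at 2.5 μM turned from 0.12 to -0.17 in that scaling.

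Heat shock factor genes and classical targets outside the family gave 8 rises and 5 falls among 15 genes at 2.5 μM, and 9 rises and 2 falls at 5 μM. In the scaling without mitochondrial and small RNA genes there were 4 rises and 5 falls at 2.5 μM, and 6 rises and 6 falls at 5 μM. HSPB1, a small heat shock protein gene, had 321 FPKM in DMSO, 733 with 2.5 μM and 912 with 5 μM, changes of 1.19 and 1.51. HSF1, the main heat shock factor gene, had 32.2, 72.7 and 77.2 FPKM. The genes that fell at 5 μM were HSP90AA1 and HSP90AB1, which with HSPE1, HSPA8 and STIP1 were also the genes that fell at 2.5 μM. HSP90AB1 had 618, 389 and 490.3 FPKM, with its lowest value at the lower dose like HSPH1. Genes that fell in the lists were named after their values had been seen.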

How the data were processed

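RNA-seq of H660 cells was analysed in 3 libraries, 1 per condition. The authors deposited gene-level FPKM in 1 table. Their methods name HISAT and StringTie within a Top Hat-Cufflinks pipeline, while the submitters' processing notes name HISAT2, featureCounts, GRCh38 and hg38; versions and annotation release are not given in the sources used here. Identifiers were matched to the GENCODE annotation, release 44, of GRCh38 (58207 of 58735). Fragments of 9 of the 10 members were recovered from FPKM steps with an exon length within 5% of GENCODE's that gave whole numbers in all 3 libraries (tolerance 0.03). For single-transcript genes under 50 fragments, 86.7%, 84.2% and 82.4% of values were whole in DMSO, 2.5 μM and 5 μM (tolerance 0.02). Counting intervals are exact (Clopper-Pearson) 95% intervals of the share of fragments, put on the log2 scale. The length trend was a lowess fit (fraction 0.3).

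All 10 members are named, with up to 3 genes per list that had over 1 FPKM in DMSO or at 5 μM, the same sign at both doses and the largest change at 5 μM. Some genes that this rule or the marker list selects are not reported here. Genes nearest to a member were chosen by Euclidean distance of the changes at both doses. The members and lists were chosen with earlier results of these data known. Alternatives were pseudocounts of 1 and 0.01, other filters and a threshold of 1, other scalings, centring, removal of the length trend and summing of shared symbols. Scripts were tested on simulated data. Software comprised statsmodels 0.14.6, scipy 1.17.1, numpy 2.4.6, matplotlib 3.10.9, pandas 2.3.3 and Python 3.11.15.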

Additional observations from a re-analysis of the deposited data

How the results depend on the processing

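The median of the 10 genes reversed when libraries were scaled to the same sum without mitochondrial and small RNA genes, to -0.076 at 2.5 μM and -0.23 at 5 μM, and BAG4 at 5 μM reversed to -0.089. In that scaling 2 genes rose and 4 fell at 2.5 μM, beside 24.6% and 56.2% of all genes, and 2 rose and 5 fell at 5 μM, beside 22.9% and 60.1%. With a threshold of 1, 1 rose and 0 fell at 2.5 μM, beside 12.9% and 21.7% of all genes. At 5 μM, 1 rose and 0 fell, beside 14.7% and 24.3%. Between the doses 0 were higher and 0 lower, beside 7.47% and 8.09%. With a mean of at least 5 FPKM, which 7 genes reached, 1 fell at 2.5 μM, beside 26.1% of 7583 genes. Between the doses 1 was higher and 1 lower, beside 21.2% and 20.4%. With the length trend removed 5 rose and 1 fell at 2.5 μM, beside 35.6% and 38.5% of 11809 genes. At 5 μM, where the median was 0.41, 6 rose and 0 fell, beside 36.1% and 39.2% of 11836 genes. Between the doses 3 were higher and 1 lower, beside 22.4% and 23.3% of 11270 genes. These counts follow from the threshold or from fewer genes in part, and the cause was not tested otherwise. Filters and summed symbols leave the value of a single gene as it is. Under the 6 alternatives that change it, 166 of 180 values moved by less than the spread of genes of similar level, 13 moved further and 1 reversed. This count is diluted, since no value under a changed pseudocount and none between the doses moved further. All that moved further or reversed were changes against DMSO in the scaling without mitochondrial and small RNA genes, except those of HSPBP1 with the length trend removed. The changes against DMSO were thus much less stable in that scaling than the count shows. The sign of genes near 0 (BAG3, BAG5, HSPA4, HSPA4L and, at 5 μM, BAG2) also depended on the scaling. With 1 library per condition, depth limits only the counting error.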

Other observations

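HSPA14, an HSP70 relative of the ribosome-associated complex, appeared under its symbol in 2 entries of the table that moved differently. One entry (ENSG00000187522) had 23.8 FPKM in DMSO, 22.7 with 2.5 μM and 14.2 with 5 μM, and the other (ENSG00000284024) had 7.08, 13.2 and 13.3 FPKM. Reads shared by the entries cannot be told apart. DNAJB4, a J-domain protein gene, had 3.47 FPKM in DMSO, 2.48 with 2.5 μM and 5.10 with 5 μM, so it was lowest at the lower dose. Its change of -0.47 at 2.5 μM was smaller than the spread of 0.50, and that of 0.54 at 5 μM was as low as 0.17, inside the threshold, among the scalings run. PINK1, a mitochondrial kinase gene whose product works with Parkin, had 3.43, 6.10 and 4.31 FPKM, and like BAG4 it was highest at the lower dose. These genes were picked after their values had been seen.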
